A study of Mus musculus with 3 samples.

Results

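Transcripts of the phagocyte NADPH oxidase and of antioxidant enzymes were compared between 3 conditions of mouse macrophages. The 8 genes were the oxidase subunits Cybb, Cyba, Ncf1 and Ncf4, the small GTPase Rac2, and the antioxidant enzymes Sod2, Cat and Gpx1. They were found by their gene name in the array design, which gave 10 probes of 55681 and 8 gene names of 34821, with 1 probe for 6 of the genes and 2 probes each for Cyba and Cat. BMDMs, macrophages grown from the bone marrow of C57BL/6J mice, were cultured for 4 to 6 days with M-CSF (10 units/ml) from L929 conditioned medium and stimulated for 20 h. One array each was hybridized with RNA of BMDMs given CpG, a DNA ligand of TLR9, of BMDMs given IFN-γ together with an antibody that blocks the IL-10 receptor (IFN-g+IL-10RB), and of BMDMs given all of these agents (Triple). The study used the arrays to find genes raised by the triple treatment, under which macrophages took up live cells, and its reference was IFN-g+IL-10RB. The uptake assays of the study were done with a higher CpG dose than the array cultures. All conditions shared the M-CSF culture, and no array of unstimulated cells was analysed here, so that a level is known only relative to another stimulated array.

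The oxidase passes electrons from NADPH to oxygen and so makes superoxide at the phagosome and plasma membrane. Its catalytic core is a membrane heterodimer of gp91phox, encoded by Cybb, and p22phox, encoded by Cyba, and it works only when cytosolic subunits, among them p47phox (Ncf1) and p40phox (Ncf4), and Rac join it. Superoxide dismutases, of which SOD2 is the mitochondrial one, turn superoxide into hydrogen peroxide, and catalase (Cat) and glutathione peroxidase 1 (Gpx1) remove hydrogen peroxide.

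Promoters are shown for the 3 members called higher in Triple than in CpG alone, Sod2, Cybb and Ncf1. Each is the 250 bases before the RefSeq start in GRCm38.p6, on the strand of the gene, at chr17:13007589-13007838 (+) for Sod2, chrX:9469325-9469574 (-) for Cybb and chr5:134229626-134229875 (-) for Ncf1. Capitals mark matches to 5 motifs searched on both strands, NF-kB (GGG, any 2 bases, TTTCC), IRF (GAAA, any 2 bases, GAAA), GAS (TTCNNNGAA), the antioxidant response element (TGACNNNGC) and PU.1 (GAGGAA).
Sod2 promoter: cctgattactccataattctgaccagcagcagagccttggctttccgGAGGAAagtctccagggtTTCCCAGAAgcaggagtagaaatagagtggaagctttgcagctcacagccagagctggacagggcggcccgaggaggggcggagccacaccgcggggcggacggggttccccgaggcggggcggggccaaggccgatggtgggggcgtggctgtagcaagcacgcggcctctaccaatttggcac
Cybb promoter: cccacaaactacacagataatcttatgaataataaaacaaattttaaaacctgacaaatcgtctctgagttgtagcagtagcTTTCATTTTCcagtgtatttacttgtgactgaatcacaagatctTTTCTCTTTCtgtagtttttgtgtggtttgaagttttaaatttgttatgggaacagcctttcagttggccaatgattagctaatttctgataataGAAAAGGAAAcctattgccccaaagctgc
Ncf1 promoter: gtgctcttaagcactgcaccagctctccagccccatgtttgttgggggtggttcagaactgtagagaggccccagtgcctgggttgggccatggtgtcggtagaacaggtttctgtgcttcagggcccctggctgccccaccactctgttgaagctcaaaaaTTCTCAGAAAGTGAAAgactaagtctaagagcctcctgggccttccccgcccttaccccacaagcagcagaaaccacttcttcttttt
The Cybb window held 3 IRF matches, at -168 to -159 and -124 to -115 on the opposite strand and at -29 to -20 on the strand of the gene. In Ncf1 an IRF match at -82 to -73 overlapped a GAS match at -88 to -80, and Sod2 had a GAS match at -185 to -177 and a PU.1 match at -203 to -198. Of 32851 promoters of the same length, 2.98% held the IRF letters, 7.02% the GAS letters, 23.3% the PU.1 letters, 10.2% the antioxidant response element letters and 1.41% the NF-kB letters. Of the other members with a promoter in the table, Cat had 1 PU.1 match and Cyba and Gpx1 had no match in this window. Rac2 and Ncf4 had no entry in the table. A match is a run of letters and says nothing of binding.

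The probes were 60 bases long. Sequences are shown for members that were not called, namely the probe used for the folds of Gpx1 and of Cyba, and probe 1 of Cat, which crosses an exon junction and served as the check on the probe used.
Gpx1 probe: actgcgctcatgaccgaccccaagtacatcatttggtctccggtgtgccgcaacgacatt
Cyba probe 1: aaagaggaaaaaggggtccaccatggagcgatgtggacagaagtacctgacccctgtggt
Cat probe 1: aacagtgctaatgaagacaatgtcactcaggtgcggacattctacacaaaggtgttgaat
In the files' mm9 coordinates, Cyba probe 1 spanned 269 bp (chr8:124950893-124951161) and Cat probe 1 spanned 3343 bp (chr2:103297086-103300428), as a probe across an exon junction does. The other probes, among them Gpx1 (chr9:108242276-108242335), matched 60 contiguous bases. They lay at chrX:9013216-9013275 for Cybb, chr5:134696380-134696439 for Ncf1, chr15:78092903-78092962 for Ncf4, chr15:78391452-78391511 for Rac2, chr17:13208074-13208133 for Sod2, chr2:103294487-103294546 for Cat probe 2 and chr8:124948726-124948785 for Cyba probe 2.

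The values are processed signals, intensities in arbitrary units, well above background on every array for all 8 members. A fold is the ratio of processed signals after each array was scaled to its 75th percentile, and a gene was called when it changed by more than 2-fold, the threshold of the study. The percentiles were 4550 for CpG, 4473 for IFN-g+IL-10RB and 4378 for Triple, so that scaling moved the folds little. With 1 array per condition there was no replicate, and no test between conditions was possible. The only error that could be measured was that between replicate spots of 1 probe, which gave a technical SD of 0.12 for a log2 fold over all replicated probes and 0.07 for signals of at least 5000, which held for every member but Cat. These SDs cover replicate spots within an array and leave out differences between arrays, their scaling and the cultures. In these bulk samples fewer cells of a type and less RNA per cell cannot be told apart. All 7 macrophage markers measured were well above background on each array, and their summed signal was 610772 for CpG, 572568 for IFN-g+IL-10RB and 522271 for Triple. Single macrophage markers differed in order, such as Cd14 (55389, 5534 and 90961) and Cd68 (153505, 190933 and 83203). Neutrophils carry the same oxidase, and of 8 neutrophil markers 4 to 5 were well above background per array, with summed signals of 3850, 9457 and 4879 in the same order. Mpo, Ltf and Ngp were not well above background on any array, and the sums were mostly Ly6g (555, 7699 and 2658) and Elane (2839, 1615 and 1539). S100a8 (297, 55.7 and 517) and Camp (72.9, not well above background and 139) had the order of Rac2, Ncf4 and Sod2. The other Camp probe had another order, with log2 folds of -0.24 for CpG and 0.92 for Triple over IFN-g+IL-10RB. S100a9 was at 58.0, 38.3 and not well above background. The part of these cells in the results was not tested. The treatments were visible in known response genes. The IFN-γ-induced chemokine Cxcl9 had signals of 38.6 for CpG, 14431 for IFN-g+IL-10RB and 230855 for Triple, and Il12b, a target of TLR signaling, was at 71.8 for CpG, not well above background for IFN-g+IL-10RB and at 8242 for Triple.

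Of the 8 members, 6 were highest in Triple, among them all 5 of the oxidase, and the other 2, Cat and Gpx1, were highest in CpG and lowest in Triple. Cyba, Ncf4 and Rac2 exceeded CpG by little (log2 folds 0.17, 0.22 and 0.21). Of genes well above background on every array, 45.9% were higher in Triple than in IFN-g+IL-10RB and 45.4% higher than in CpG. The share of all genes highest in Triple was not counted. Against IFN-g+IL-10RB, 3 members were called higher in Triple (Cybb, Rac2 and Sod2), beside 3.53% of the 33597 genes measured, and none was called lower, beside 5.01%. For CpG against IFN-g+IL-10RB, 2 members were called higher (Rac2 and Sod2), beside 2.75% of all genes, and none lower, beside 3.18%. For Triple against CpG, 3 members were called higher (Cybb, Ncf1 and Sod2), beside 4.08%, and none lower, beside 4.55%. All members were well above background, and among the 15891 genes that every array measured well above background, the shares called higher were 5.13%, 3.74% and 5.99% in the same order of comparisons, and the shares called lower 8.24%, 4.84% and 7%. The median log2 fold of the members was 0.91 for Triple over IFN-g+IL-10RB, 0.49 for CpG over IFN-g+IL-10RB and 0.21 for Triple over CpG, where the medians over the genes well above background were -0.04, 0.00 and -0.05. The 3 comparisons share arrays, and their values are given side by side.

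**Figure D1:**
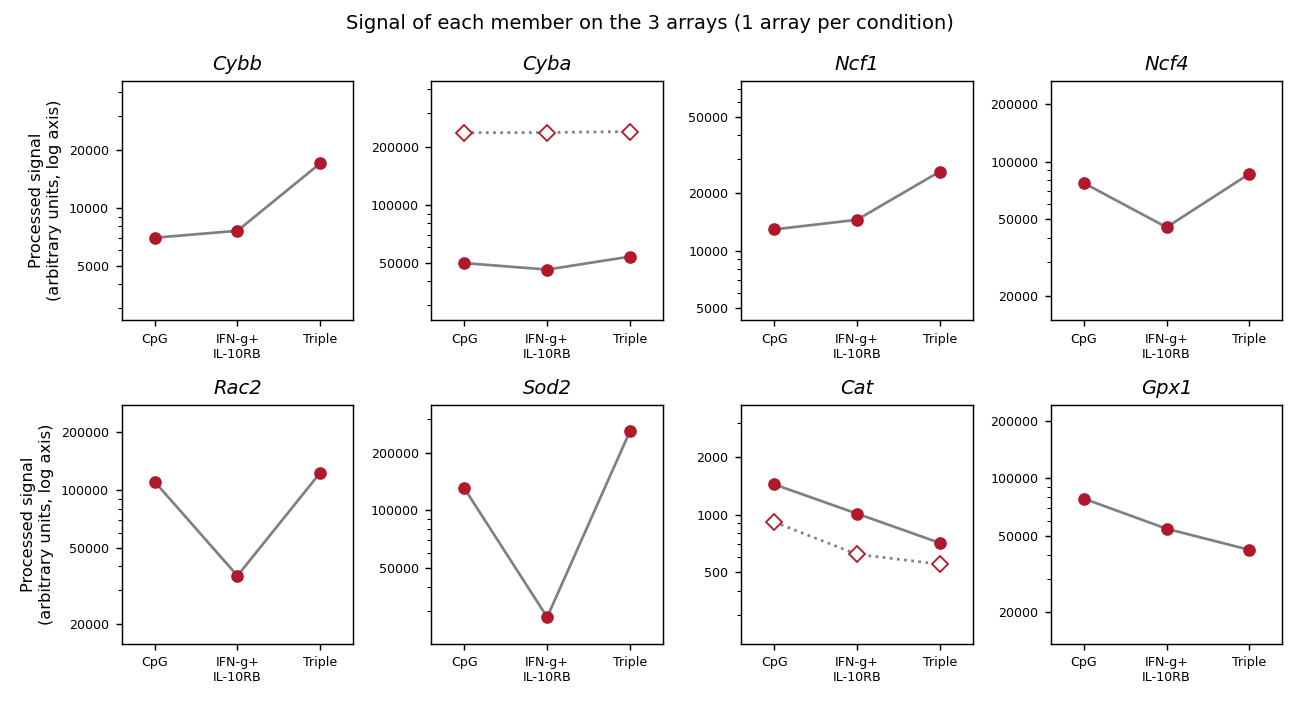
Processed signal (arbitrary units, log axis) of each member on the CpG, IFN-g+IL-10RB and Triple arrays, 1 array per condition. Filled circles are the probe used for the folds, open diamonds the other probe of Cyba and Cat, and lines join the values of 1 probe. Cybb and Ncf1 stand apart in Triple, Rac2, Ncf4 and Sod2 are lowest with IFN-g+IL-10RB, Cyba differs least, and Cat and Gpx1 decline to Triple.

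Cybb encodes gp91phox (NOX2), the subunit that carries the electrons. Its signal was 6983 in CpG, 7592 in IFN-g+IL-10RB and 17069 in Triple. The CpG and IFN-g+IL-10RB arrays lay close to each other, and Triple stood above both. Cybb was 2.30-fold higher in Triple than in IFN-g+IL-10RB (log2 fold 1.20) and 2.54-fold higher than in CpG (log2 fold 1.35). The difference between CpG and IFN-g+IL-10RB, -0.15 on the log2 scale, was about 2 technical SDs for signals of this size (0.14) and within those over all replicated probes.

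Cyba encodes p22phox, the partner that gp91phox needs to be stable. Probe 1 gave 49703 in CpG, 45996 in IFN-g+IL-10RB and 53757 in Triple. None of these differences was near 2-fold, with log2 folds of 0.26 for Triple over IFN-g+IL-10RB, 0.09 for CpG over IFN-g+IL-10RB and 0.17 for Triple over CpG. Probe 2 gave 237889, 238480 and 241424 in the same order, a log2 fold of 0.05 for Triple over IFN-g+IL-10RB, and was not used for the folds because the scanner software marked its local background on the CpG array as an outlier. Within the same arrays Cybb and Cyba therefore changed unequally, by a difference of log2 folds of 0.94 for Triple over IFN-g+IL-10RB and 1.18 for Triple over CpG, in which the array scaling cancels.

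Ncf1 encodes p47phox, the organizer that is phosphorylated when the oxidase is activated. Its signal was 12915 in CpG, 14493 in IFN-g+IL-10RB and 25839 in Triple, an order like that of Cybb. Ncf1 was 2.08-fold higher in Triple than in CpG (log2 fold 1.06) and 1.82-fold higher than in IFN-g+IL-10RB (log2 fold 0.87), short of the threshold. CpG and IFN-g+IL-10RB differed by -0.19 on the log2 scale, slightly beyond 2 technical SDs for signals of this size. The call against CpG was close to the threshold, and the log2 fold ran from 0.94 to 1.14 over 13 other processing settings.

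Ncf4 encodes p40phox, which binds phosphatidylinositol 3-phosphate on phagosomes. Its signal was 77310 in CpG, 45467 in IFN-g+IL-10RB and 86386 in Triple. Here CpG lay near Triple and IFN-g+IL-10RB was the low array, unlike Ncf1. Triple was 1.94-fold (log2 fold 0.96) and CpG 1.67-fold (log2 fold 0.74) higher than IFN-g+IL-10RB, both short of 2-fold. Triple exceeded CpG by 0.22, beyond 2 technical SDs for signals of this size (0.14). Over the 13 other settings this gap ran from 0.10 to 0.30, so that its lower end fell inside those SDs. The difference between the log2 folds of Ncf4 and Ncf1 was 0.93 for CpG over IFN-g+IL-10RB and -0.84 for Triple over CpG.

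Rac2 is the Rac GTPase of blood cells and completes the active oxidase. Its probe was printed 10 times on each array, so that its spot error could be measured directly. The spots lay between 105817 and 114891 in CpG, between 34291 and 37284 in IFN-g+IL-10RB and between 117699 and 128366 in Triple, so that no spot of one array overlapped those of another. The means were 110459, 35716 and 123150. Rac2 was 3.52-fold higher in Triple than in IFN-g+IL-10RB (log2 fold 1.82, SE 0.019 from the spots alone) and 3.04-fold higher in CpG (log2 fold 1.60, SE 0.019). Triple exceeded CpG by 0.21 on the log2 scale (SE 0.018), which lies beyond the error of 10 spots. This error covers the spots and not the arrays, their scaling or the cultures. The gap ran from 0.09 to 0.29 over the 13 other settings. Rac1, the widely expressed Rac that macrophages also use, was at 37382, 35119 and 34582, and its log2 fold for Triple over IFN-g+IL-10RB was 0.01, which was 1.81 below that of Rac2.

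**Figure D2:**
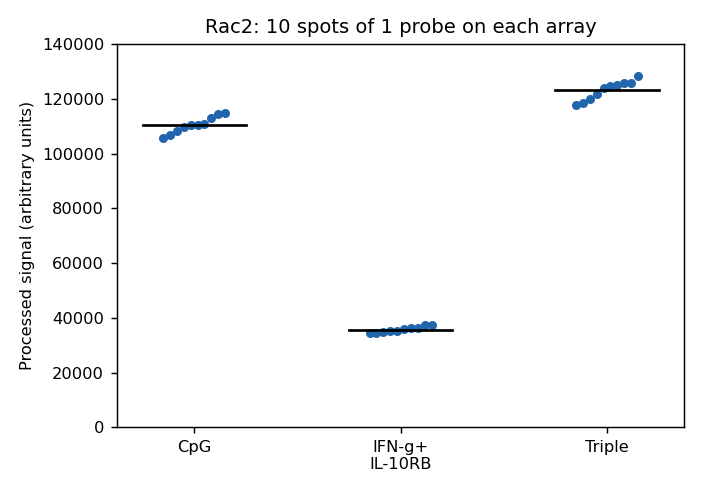
Processed signal of the 10 spots of the Rac2 probe on each array (arbitrary units, linear axis from 0), sorted within each array, with bars at the geometric mean. The spots of IFN-g+IL-10RB lie far below those of CpG and Triple, and the spots of CpG and Triple do not overlap, which shows spot error within 1 array per condition and not the spread between cultures.

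Sod2, which encodes the manganese superoxide dismutase of mitochondria, had the widest range of the members. Its signal was 130104 in CpG, 27731 in IFN-g+IL-10RB and 258267 in Triple. Triple was the highest and IFN-g+IL-10RB the lowest of the arrays. Sod2 was 9.51-fold higher in Triple (log2 fold 3.25) and 4.61-fold higher in CpG (log2 fold 2.21) than in IFN-g+IL-10RB, and 2.06-fold higher in Triple than in CpG (log2 fold 1.04). The last of these passed the threshold after scaling, not in the unscaled signals (log2 fold 0.99), and ran from 0.93 to 1.13 under the 13 other settings. The Triple signal was among the brightest on the array. Of 144 genes whose probe exceeded 200000 on at least 1 array, 51 had dimmer probes, and the dimmer probes gave a larger absolute log2 fold for 37 of them in Triple over IFN-g+IL-10RB and for 32 in Triple over CpG. Sod2 had 1 probe, and whether its fold is understated was not tested.

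Sod1, the cytosolic superoxide dismutase, had another order, at 82400 in CpG, 59078 in IFN-g+IL-10RB and 40215 in Triple. The log2 folds of Sod2 and Sod1 differed by 3.77 for Triple over IFN-g+IL-10RB and by 2.02 for Triple over CpG. The genes nearest to Sod2 in pattern, by Euclidean distance of the 3 centred log2 values, were Pilrb2 (distance 0.098), Mllt6 (0.13) and Ccl4 (0.14). They were sought among RefSeq symbols well above background on every array, with Gm, LOC and Rik names left out. This likeness rests on 3 arrays, and 29 genes of any name lay within a distance of 0.5.

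Cat encodes catalase, the peroxisomal enzyme that splits hydrogen peroxide. The brighter of its probes (probe 2) gave 1438 in CpG, 1012 in IFN-g+IL-10RB and 712 in Triple. The values declined in this order, and Cat was 1.94-fold lower in Triple than in CpG (log2 fold -0.96), just short of the threshold. Triple was 1.39-fold lower than IFN-g+IL-10RB (log2 fold -0.48), and CpG was 1.40-fold higher (log2 fold 0.48). Probe 1 had the same order at 914, 621 and 551, with smaller log2 folds of -0.67 for Triple over CpG and -0.14 for Triple over IFN-g+IL-10RB.

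Gpx1 encodes the abundant cytosolic glutathione peroxidase. Its signal was 78315 in CpG, 54538 in IFN-g+IL-10RB and 42339 in Triple, the order of Cat and of Sod1. Gpx1 was 1.78-fold lower in Triple than in CpG (log2 fold -0.83) and 1.26-fold lower than in IFN-g+IL-10RB (log2 fold -0.33), and 1.41-fold higher in CpG than in IFN-g+IL-10RB (log2 fold 0.50). None of these passed 2-fold, while each exceeded 2 technical SDs. The log2 fold of Sod2 exceeded that of Cat by 3.73 and that of Gpx1 by 3.58 in Triple over IFN-g+IL-10RB. In Triple over CpG, the fold of Sod2 was 4.01 times that of Cat and 3.67 times that of Gpx1.

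**Figure D3:**
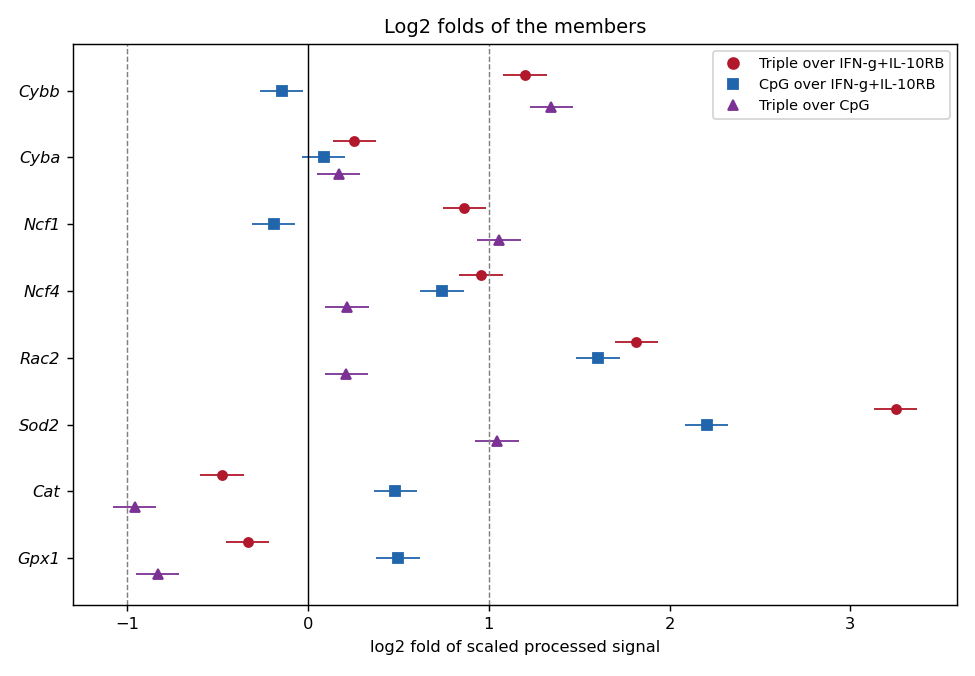
Log2 fold of the scaled processed signal for each member in the 3 comparisons, with bars of 1 technical SD (0.12, from replicate spots) and dashed lines at 2-fold. Sod2 and Rac2 are past the line in both comparisons with IFN-g+IL-10RB, and Cybb and Sod2 in both comparisons with Triple. Cat and Gpx1 lie below 0 wherever Triple is set over another array.

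Other genes of the same pathways were described from lists chosen beside the members, 57 genes measured of 58, of which 49 were well above background on each array. Of the 57, 11 were called higher (19.3%) and 2 lower (3.51%) for Triple over IFN-g+IL-10RB, 10 higher (17.5%) and none lower for CpG over IFN-g+IL-10RB, and 4 higher (7.02%) and 5 lower (8.77%) for Triple over CpG. No test was made of these shares against those of all genes given above.

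Of 10 oxidase partners, 2 were called higher and 1 lower in Triple, and 2 higher in CpG, against IFN-g+IL-10RB. Prkcb, a protein kinase C that phosphorylates p47phox, was at 43794 in CpG, 4552 in IFN-g+IL-10RB and 31325 in Triple, which gave log2 folds of 3.24 for CpG and 2.81 for Triple. Prkcb thus had a wider range than Rac2, with CpG and Triple on the same side. Hvcn1, the proton channel that balances the charge moved by the oxidase, was at 6745, 3323 and 6576, with log2 folds of 1.00 for CpG, just short of the threshold, and 1.02 for Triple, just past it. The other Hvcn1 probe gave 0.90 and 0.93, both short of the threshold. Vav1, an exchange factor for Rac, was at 107266, 45256 and 83333, called in CpG (1.22) and not in Triple (0.91), where its other probe gave 1.32. Pak1, a kinase that Rac activates, was lower in Triple (1071) than in CpG (2604) and IFN-g+IL-10RB (2924).

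Of 7 other NADPH oxidase genes, 3 (Nox3, Nox4 and Duox1) were not well above background on any array. The summed signal of the 7 was at most 401 on any array. Nox1 had signals of 163 in CpG, 75.9 in IFN-g+IL-10RB and 50.2 in Triple, called higher in CpG than in either other array, and its probes disagreed in size (log2 fold 1.08 and 2.29 for CpG over IFN-g+IL-10RB).

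Among 12 other dismutases and peroxidases, Prdx5, a peroxiredoxin of mitochondria and peroxisomes, was at 104743 in CpG, 109862 in IFN-g+IL-10RB and 257178 in Triple. Like Cybb, it was called in both comparisons with Triple (log2 folds 1.26 and 1.35), and its dimmer probe gave 2.24 and 2.38. Prdx1, a cytosolic peroxiredoxin, was at 6220, 5413 and 11115, and was called only over IFN-g+IL-10RB (1.07). Sod3, the extracellular dismutase, reached 77.0 in Triple and was not well above background on the other arrays. Its log2 fold was at least 1.56 over IFN-g+IL-10RB and at least 1.75 over CpG. Gpx3, a secreted glutathione peroxidase, was at 58.1 in CpG and 87.0 in IFN-g+IL-10RB, and not well above background in Triple. Gpx4, which reduces lipid peroxides, was at 42489, 42756 and 26504, with a log2 fold of -0.66 for Triple over IFN-g+IL-10RB.

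Of 16 thioredoxin and glutathione genes, 4 were called higher in Triple and 4 in CpG over IFN-g+IL-10RB. Gsr, which regenerates reduced glutathione with NADPH, was at 16832 in CpG, 4904 in IFN-g+IL-10RB and 19655 in Triple, an order and size like those of Rac2. Gclm, a subunit of the enzyme that starts glutathione synthesis, was at 1177, 447 and 1116, and Txnrd3, a thioredoxin reductase, at 394, 169 and 357. Both were called higher in CpG and in Triple than in IFN-g+IL-10RB. Slc7a11, the cystine transporter, was well above background only in Triple (140), with a log2 fold of at least 2.42 over IFN-g+IL-10RB and at least 2.62 over CpG. The glutathione transferases moved differently. Gstm1 was called higher in CpG (4892) than in IFN-g+IL-10RB (2086) and Triple (1944), and Mgst1 was called higher in Triple (6047) than in CpG (3077).

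Of 6 genes in the list named NRF2 pathway, only Hmox1 was called. This heme oxygenase was at 59939 in CpG, 17161 in IFN-g+IL-10RB and 57912 in Triple, which gave log2 folds of 1.78 and 1.79 over IFN-g+IL-10RB. The glutathione and thioredoxin genes, the peroxiredoxins and Me1 were counted in other lists. The count of 6 therefore does not describe all genes that NRF2 can regulate. Of 6 genes that supply NADPH, Me1, the cytosolic malic enzyme, was at 2204, 551 and 1812 and was called in both comparisons with IFN-g+IL-10RB. Idh1, the cytosolic isocitrate dehydrogenase, was at 715, 325 and 190 and was called higher in CpG (log2 fold 1.11) and lower in Triple than in CpG (log2 fold -1.86).

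**Figure D4:**
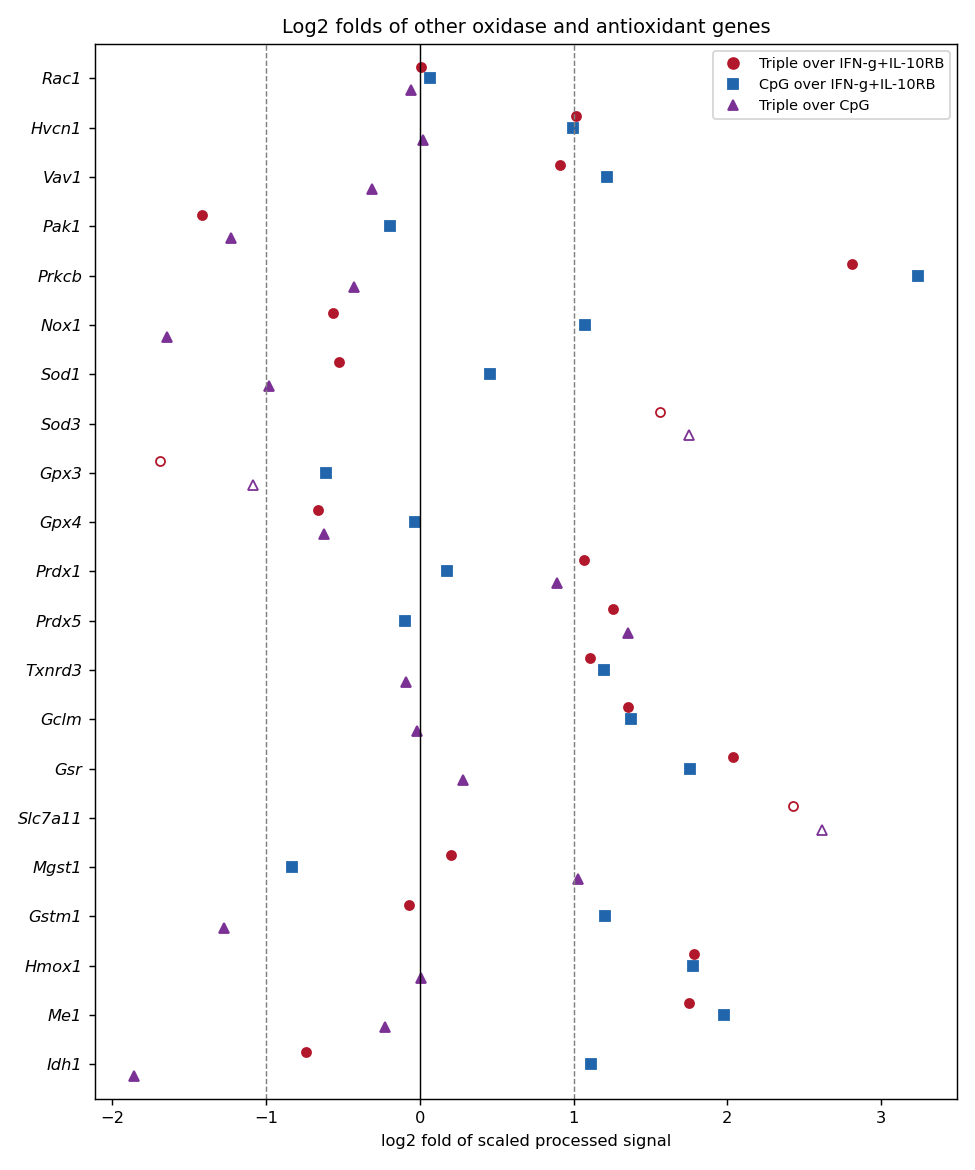
Log2 fold of the scaled processed signal for the 18 listed pathway genes past 2-fold in at least 1 comparison and for Rac1, Sod1 and Gpx4, with dashed lines at 2-fold. Open symbols are bounds, where only the brighter signal was well above background, and a comparison without a symbol had neither signal above it. Prkcb, Gsr, Hmox1, Me1, Gclm and Txnrd3 are past the line upward in both comparisons with IFN-g+IL-10RB. Prdx5 and, as bounds, Sod3 and Slc7a11 are so in both comparisons with Triple. Pak1 and, as a bound, Gpx3 are past the line downward in both comparisons with Triple.

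Which folds depended on the processing was counted over the 24 member folds. Some of the settings could not move them. Every member was well above background on each array, so settings that changed only the background filter left each fold as it was. The mean of a gene's probes moved only Cat. Scaling by the percentile over all probes, the median, spike-ins or Actb moved all member folds of a comparison by the same amount. So did no scaling, the authors' table and RefSeq mRNA probes alone. Keeping outlier spots did so for all members but Cyba. The 13 settings are therefore not 13 independent checks. Of the 8 past 2-fold, 6 stayed past it in all 13 other settings, and the exceptions were Ncf1 and Sod2 for Triple over CpG. Of the 16 inside it, 14 stayed inside, and the exceptions were Ncf4 for Triple over IFN-g+IL-10RB, which reached 1.07, and Cat for Triple over CpG, which reached -1.08.

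**Figure D5:**
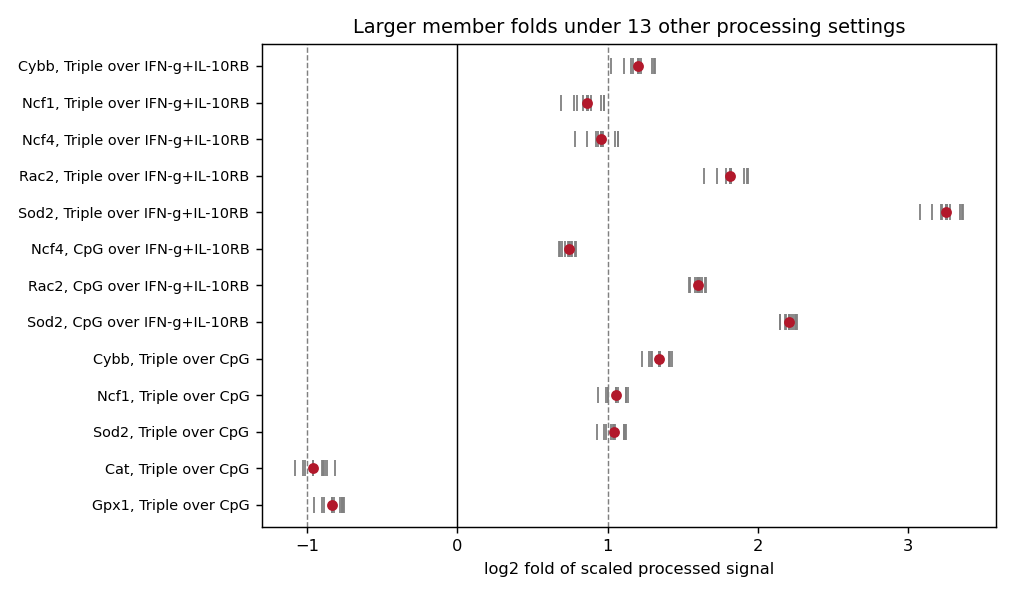
Log2 fold as reported (circles) and under 13 other processing settings (ticks) for the member folds over 0.7 in absolute size, with dashed lines at 2-fold. The ticks of Ncf1, Sod2 and Cat for Triple over CpG and of Ncf4 for Triple over IFN-g+IL-10RB lie on both sides of a line, and the ticks of the other folds on 1 side.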

How the data were processed

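Expression was measured on 1 Agilent 1-colour array per condition. Per the file headers, the authors ran Agilent Feature Extraction 10.10.1.1. The deposited processed signal is its intensity after subtraction of a fitted background. A table the authors deposited as log2 values equalled the log2 processed signal after subtraction of 1 constant for each array (100% of values within 0.01), with column medians of -4.26 for CpG, -4.38 for IFN-g+IL-10RB and -4.27 for Triple.

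Each array had 59305 spots that were not controls, 44.4% to 46.0% of them well above background and 0 saturated. Control and outlier-marked spots (3.04% to 3.78%) were left out, log2 signals were averaged per probe, and the 75th percentile was subtracted, taken over the 21229 probes that were well above background on every array, since under 50% of all probes were. A gene took its brightest probe. It was called past 2-fold if the brighter signal was well above background, and a dimmer signal that was not gave a bound. The arrays shared a slide and a scan time, and each condition had its own position. The number of arrays limits the precision, and no p-value is given. The doses are not used here.

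The members, gene lists and alternatives were chosen with earlier results of these data known. The genes named are the members, every listed pathway gene past 2-fold in at least 1 comparison, Rac1, Sod1 and Gpx4, the response genes Cxcl9, Gbp2, Irf1, Ciita, Il6, Il1b, Il12b and Ptgs2, Actb and Gapdh, and the 3 genes nearest to the member with the widest range. A further gene of the rule is not reported here. Macrophage and neutrophil markers were listed too, and every neutrophil marker is named, as that cell also carries the oxidase. Cd14 and Cd68 were named after their values were seen. Markers were also listed for other cells. Of these, 1 of 4 T cell, 1 of 4 B cell and 1 to 3 of 4 dendritic cell markers, 0 of 4 erythroid and 1 to 2 of 3 measured fibroblast markers were well above background per array. The marker Lyz2, the fibroblast marker Dcn and Rap1a had outlier marks and were left out. Of 29150 RefSeq accessions, 27509 were found in the GRCm38.p6 table, and all 8 members kept their symbol. Promoter sequences are from RefSeq (6 of 8 members), and probe positions are in mm9.

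Alternatives included background correction by normexp with an offset of 50 (R 4.3.3, limma 3.58.1), scaling by quantiles, the median, spike-ins (5 of 10 probes) or Actb, no scaling, the percentile over all probes, the authors' table, both arrays well above background, no filter, the mean of a gene's probes, RefSeq mRNA probes alone, outlier spots kept, the other probe of Cyba and Cat, and thresholds of 1.5-fold and 3-fold. The code was tested on simulated arrays. Calculations used Python 3.11.15, numpy 2.4.6, pandas 2.3.3 and scipy 1.17.1, and figures matplotlib 3.10.9.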

Additional observations from a re-analysis of the deposited data

How the results depend on the processing

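No paired analysis was possible because there was only 1 array of each kind. Of the 24 member folds, 23 kept their sign under all 13 alternatives, and the exception was Cyba for CpG over IFN-g+IL-10RB (0.09, range -0.02 to 0.14). The alternatives that changed only the background filter could not move these folds. Those that shifted a whole array moved all member folds of a comparison together. Members called higher for Triple over IFN-g+IL-10RB were 3 and became 5 at 1.5-fold, 2 at 3-fold, and 4 with the percentile over all probes, the authors' table and RefSeq mRNA probes alone. For Triple over CpG, members called higher went from 3 to 2 with no scaling, 1 with spike-in scaling, 1 relative to Actb and 0 at 3-fold. Members called lower went from 0 to 1 with no scaling, 1 with spike-in scaling, 1 relative to Actb and 2 at 1.5-fold. Pathway genes called higher for Triple over IFN-g+IL-10RB went from 11 to 18 at 1.5-fold and 5 at 3-fold. At 2-fold they ran from 8 (normexp and spike-in scaling) to 12 over the other settings. Those called lower went from 2 to 1 with normexp, 3 with spike-in scaling and with no filter, and 1 with both arrays well above background. They were 7 at 1.5-fold and 1 at 3-fold. For CpG over IFN-g+IL-10RB, pathway genes called higher went from 10 to 8 with normexp, 15 at 1.5-fold and 4 at 3-fold. Those called lower went from 0 to 1 each with normexp, median scaling, spike-in scaling and no filter, and 4 at 1.5-fold. For Triple over CpG, pathway genes called higher went from 4 to 2 with normexp, 2 with both arrays well above background, 8 at 1.5-fold and 2 at 3-fold. They were 3 each with no scaling, spike-in scaling and relative to Actb. Those called lower went from 5 to 3 with normexp, 11 at 1.5-fold and 2 at 3-fold. They were 7 each with no scaling, spike-in scaling and relative to Actb. The filters and thresholds change the counts by construction. A setting that shifts a whole array does so too, since genes near 2-fold then cross it. Spike-in scaling shifted Triple over CpG by -0.12, which put Ncf1 (0.94) and Sod2 (0.93) inside 2-fold and Cat (-1.08) past it. The cause of the other changes was not tested. The median log2 fold of genes well above background, for Triple over IFN-g+IL-10RB, moved by 0.11 with the percentile over all probes and with the authors' table, and by -0.17 with spike-in scaling, where the share of higher among all calls was 30.5% against 41.4%. For genes such as Sod3, Gpx3 and Slc7a11, signals near background leave only bounds.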

Other observations

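Of the genes used to check the level of the arrays, Actb had 1 measured probe, and Gapdh differed between its probes. Actb was at 396152 in CpG, 382988 in IFN-g+IL-10RB and 399252 in Triple. The brightest Gapdh probe was level, at 252757, 257636 and 257997 in the same order, with a log2 fold of 0.03 for Triple over IFN-g+IL-10RB. The other 6 Gapdh probes were all higher in Triple, with log2 folds from 0.26 to 0.61 over IFN-g+IL-10RB. Among the 51 genes with a probe over 200000 and dimmer probes, the median absolute log2 fold for Triple over IFN-g+IL-10RB was 0.20 at the brightest probe and 0.34 at the dimmer ones, and for CpG over IFN-g+IL-10RB it was 0.22 and 0.37. Sod2, probe 2 of Cyba and Prdx5 exceeded 200000 on at least 1 array, and the part of signal in their folds was not tested. Actb and the brightest Gapdh probe exceeded it on every array, and Actb was the brightest signal of the CpG array. The same limit holds for their level and for scaling relative to Actb.

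The response genes of IFN-γ did not share 1 order. Gbp2, a GTPase induced by IFN-γ, was at 3111 in CpG, 239515 in IFN-g+IL-10RB and 252036 in Triple, and the transcription factor Irf1 was at 9196, 132675 and 123964. Ciita, the activator of MHC class II genes, was instead lowest in Triple, at 114, 258 and 63.3. Of the TLR targets, Il6 was at 319 in CpG and 24279 in Triple, Il1b at 1445 and 30090, and both were not well above background in IFN-g+IL-10RB. Ptgs2, the inducible cyclooxygenase, was at 142, 513 and 29014.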
